A study of Drosophila melanogaster with 2 samples.

Results

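The 10 genes described here are srp, pnr, lz, kn, Pvr, Hml, NimC1, PPO1, PPO2 and PPO3, which are blood cell and GATA factor genes of Drosophila melanogaster. They were taken by name from the 13945 protein-coding genes of the Ensembl BDGP6 models, and all 10 were found. ChIP-seq, which sequences the DNA pulled down with a protein, mapped the eye transcription factor Eyeless in the strain ey-GFP, in which GFP is fused to the C-terminal end of ey. The material was whole larvae in the wandering stage of the third instar, males and females pooled, of unstated age, in 2 biological replicates numbered 1 and 3 that form 1 group. Both replicates carried the fusion and no group without it was used. The description names an antibody against GFP while the antibody entry reads ey. No label states the promoter or the number of copies of the fusion. Whole larvae mix all tissues, so the cells in which a region arose cannot be told apart.

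Fly blood cells, or haemocytes, are phagocytic plasmatocytes, crystal cells that carry prophenoloxidase for melanisation, and lamellocytes that wrap parasites. GATA factors are zinc finger proteins that bind short DNA words with GATA at their centre. The GATA factor Serpent, made from srp, is needed for blood cell fate in the embryo, and it works with the Runx protein Lozenge in crystal cells. Lozenge is also known from the eye, where it patterns cell fates behind the furrow, and Eyeless is a Pax6 protein with a paired domain and a homeodomain.

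A region was counted for a gene when its summit, the base of highest signal given with each region, lay inside the gene or within 1 kb of it. The sequences around the summits of the regions on which the results turn are given first, because they let the base composition and the GATA words be read directly. Each holds 101 bases of the plus strand, 50 to either side of the summit, from the RefSeq sequence of genome Release 6 (dm6). Capitals mark a GATA word, that is TGATAA or AGATAA or TGATAG or AGATAG, or the reverse complement of one of them. The first lay 1525 bp upstream of srp at chr3R:15984577-15984677 and is shown as the only region of the srp and pnr locus in the optimal list, the strictest of the deposited lists (described after the sequences). The lz summit at chrX:9298246-9298346 is the only 1 of the 6 optimal summits at the 10 genes with a GATA word. The first 2 Pvr summits, at chr2L:8229745-8229845 and chr2L:8232508-8232608, are the optimal ones of that gene and hold none. The Pvr summits at chr2L:8229946-8230046 and chr2L:8230409-8230509 are weaker neighbours that hold 1 each. The pnr summit at chr3R:16042266-16042366 is the strongest of either GATA factor gene within 1 kb.
srp upstream, optimal: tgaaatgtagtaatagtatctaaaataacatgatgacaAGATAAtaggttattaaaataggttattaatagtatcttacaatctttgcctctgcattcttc
lz intron, optimal: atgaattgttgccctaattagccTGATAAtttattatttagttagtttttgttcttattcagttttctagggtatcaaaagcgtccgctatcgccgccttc
Pvr intron 2, optimal: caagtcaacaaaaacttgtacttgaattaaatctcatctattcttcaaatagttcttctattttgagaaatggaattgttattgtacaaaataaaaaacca
Pvr intron 1, optimal: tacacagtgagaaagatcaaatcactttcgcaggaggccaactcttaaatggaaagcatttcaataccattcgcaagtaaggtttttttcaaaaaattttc
Pvr intron 2, weaker: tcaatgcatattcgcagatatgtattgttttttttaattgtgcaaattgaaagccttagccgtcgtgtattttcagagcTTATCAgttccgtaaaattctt
Pvr intron 1, weaker: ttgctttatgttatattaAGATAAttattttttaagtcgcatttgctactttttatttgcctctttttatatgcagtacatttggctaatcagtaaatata
pnr downstream: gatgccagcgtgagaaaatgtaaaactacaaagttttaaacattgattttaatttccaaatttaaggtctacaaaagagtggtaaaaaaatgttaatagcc
Of these 7 windows, 4 hold a GATA word and each of the 7 had less GC than its flanks, read from windows of equal width 300 bp away on each side. The 7 were picked for display, so these counts are not shares of all regions. Of all 33 pooled summits at the 10 genes, 6 held a GATA word (18.2%), against 19.3% of the pooled list. Less GC than the flanks was found at 21 of the 33 (63.6%), against 61.9%. The window upstream of srp had 25.7% GC, against 52.0% in its flanks, and the lz window had 35.6%, against 46.0%. The strongest Pvr window had 24.8%, against 38.1%, and the strongest pnr window 28.7%, against 50%.

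Regions came from 4 deposited lists. The optimal list, made by the authors with an irreproducible discovery rate (IDR) threshold, held 6835 regions. The pooled list of both replicates and the list of replicate 1 held 30000 each, and the list of replicate 3 held 27637. By its deposited name the pooled list holds peaks and background as input for IDR. A region in it is therefore not by itself a called binding site, above all near its lowest signal. Signal is the authors' own strength value and its scale is not stated. It was ranked within a list (rank 1 is the strongest) and not compared between lists. The lowest signal was 79.3 in the optimal list, 15.4 in the pooled list, 8.41 in that of replicate 1 and 10.7 in that of replicate 3. Read depth cannot be read from the lists and is unknown.

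Lz, kn, Pvr and PPO3 had an optimal region, which is 4 of the 10 genes, against 34.1% of all protein-coding genes by the same rule. A pooled region lay at 7 of the 10 genes, against 63.4% of all genes. In the list of replicate 1 the count was 6 of 10, against 61.8%, and in the list of replicate 3 it was 8 of 10, against 66.6%. The shares at the 10 genes lay near those of all genes in each list. Hml and NimC1 had a region in the list of replicate 3 but none in that of replicate 1, and PPO1 and PPO2 had none in any list. In all, 6 optimal, 33 pooled, 29 replicate 1 and 34 replicate 3 regions lay at the 10 genes. Gene length differs among them, and longer genes hold regions more often. Of the genes between 0.5 and 2 times as long as each of the 10, the share with an optimal region ranged from 32.9% for PPO3 to 62.0% for kn.

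**Figure D1:**
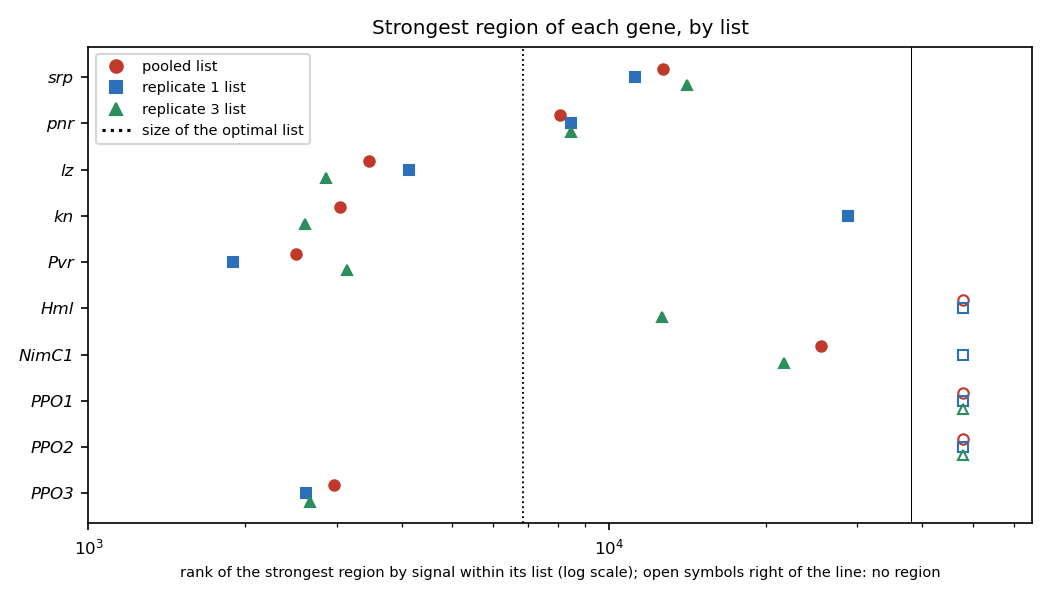
Rank of the strongest region of each of the 10 genes (rows) in the pooled list and the lists of replicates 1 and 3 on a log axis, with open symbols at the right for no region and a dotted line at the size of the optimal list, 6835. Lz, kn, Pvr and PPO3 had pooled ranks left of the line, kn had a replicate 1 rank of 28844, and PPO1 and PPO2 had no region.

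Among the GATA factor genes, srp (FBgn0003507, chr3R:15986152-16004085, plus strand) had 7 pooled regions and none in the optimal list. Its strongest within 1 kb had a pooled signal of 41.1 (rank 12695), with 27.9 in replicate 1 and 13.4 in replicate 3. That region lay 148 bp downstream of the gene, and the TSS (transcription start site) of the neighbouring GATA factor gene GATAe was nearer, at 4872 bp against 5144 bp. The other 6 ranged from 16.3 to 35.2 in the pooled list and each had a counterpart in the list of 1 replicate alone. Of these, 4 were found in replicate 1 and 2 in replicate 3. The neighbouring regions at 35.2 and 26.1 had a replicate 1 region each near their summits, with 25.5 and 12.9. They lay 290 bp upstream of the first TSS, in a 5′ UTR and, in 4 cases, in introns 1 and 2 of srp-RD, and 5 of them also lay in the noncoding gene lncRNA:CR44133. Per 10 kb of the gene with 1 kb to either side, srp held 3.51 pooled regions. The whole pooled list held 2.24 per 10 kb of whole chromosomes. The 2 values are unlike, since the second also covers sequence far from genes.

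The strongest region of the locus lay just outside the window. Its pooled signal was 208.8 (rank 2187), with 123.7 in replicate 1 (rank 1889) and 85.4 in replicate 3 (rank 2699). It lay at chr3R:15984412-15984841, 1525 bp upstream of the first srp TSS. No other protein-coding gene had a nearer TSS, since that of Hel89B lay 8062 bp away. The noncoding gene lncRNA:CR44133 starts 0.029 kb past the first srp TSS on the same strand, so its start was almost as near. With a window of 5 kb srp had an optimal region, and with 1 kb it had none.

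Pnr (FBgn0003117, chr3R:16026079-16041796, plus strand) encodes the GATA factor Pannier, which acts in the dorsal body wall, the heart and the dorsal eye field. It had 3 pooled regions and no optimal one. The strongest had a signal of 67.0 (rank 8069), with 36.7 in replicate 1 and 29.9 in replicate 3, so it was found in both. It lay 520 bp downstream of the gene and the TSS of Jhbp4 was nearer, at 1182 bp. The next, with 43.9, lay in intron 1 of 3 of pnr-RB and was found in replicate 3 alone (14.2). The weakest, with 15.6, lay in the 3′ UTR and was found in replicate 1 alone (10.9). The nearest optimal region was 7746 bp from pnr.

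Across the 65.6 kb that hold srp, GATAe and pnr with 5 kb to either side, 1 region of the optimal list was found, the one upstream of srp. The pooled list held 27 there, the list of replicate 1 held 28 and that of replicate 3 held 15. GATAe itself, which lies between srp and pnr, had 5 pooled regions of which the strongest reached 29.3 (rank 17281). The map of this stretch shows groups of regions with gaps between them, and 1 region above the lowest optimal signal.

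**Figure D2:**
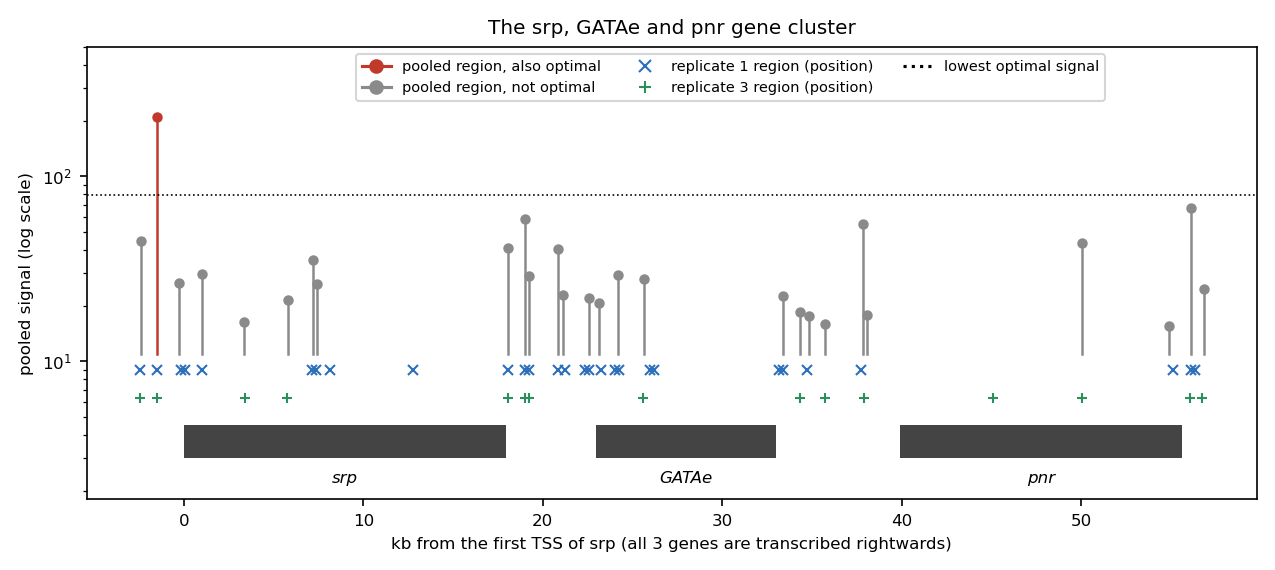
Pooled signal (log axis) of each pooled region along the srp, GATAe and pnr genes (dark boxes), in kb from the first TSS of srp, with replicate regions marked by position under the stems and a dotted line at the lowest optimal signal, 79.3. The 1 optimal region, with 208.8, lies upstream of srp, and the strongest near pnr reaches 67.0.

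Lz (FBgn0002576, chrX:9284649-9303636, plus strand), the Runx gene of crystal cells and of the eye, had 1 optimal and 3 pooled regions. The optimal one lay at chrX:9298081-9298510 with a signal of 147.4 (rank 3463). Replicate 1 gave it 69.2 (rank 4128) and replicate 3 gave it 81.5 (rank 2864), with summits shifted by 80 and 114 bp from the pooled one. All 3 pooled regions lay in intron 5 of 5 of lz-RA, which spans 6330 bp, and the optimal summit lay 13647 bp from the TSS. The others had 61.7, found in replicate 3 alone (41.6), and 50.2, found in both (19.5 and 31.7). No pooled region lay within 1 kb of the lz TSS. For each of the 3, lz had a nearer TSS than any other protein-coding gene, while that of lncRNA:CR44534, a noncoding gene, was nearer to the one with 50.2 (14505 bp against 15531 bp).

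Kn (FBgn0001319, chr2R:14772650-14807061, minus strand) encodes the EBF factor Collier, known from the lymph gland niche and from wing and muscle development. At 34412 bp it was the longest of the 10 genes, and it had a single pooled region, which was also optimal. Its signal was 163.5 (rank 3044) at chr2R:14782949-14783155. In replicate 3 it had 87.5 (rank 2610), with a summit 4 bp away, and in replicate 1 no region overlapped it. The nearest replicate 1 summit lay 11791 bp away although the list went down to a signal of 8.41. Of all 6835 optimal regions, 1.40% were found in replicate 3 alone. The region lay in intron 5 of 11 of kn-RB, 13947 bp from the nearest kn TSS, and the TSS of BEAF-32, a boundary protein gene, was nearer at 11779 bp. The other 5 regions of replicate 3 had 11.8 to 17.2, and replicate 1 had 1, with 8.94 at 670 bp upstream. Kn thus had 0.275 pooled regions per 10 kb.

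Pvr (FBgn0032006, chr2L:8220980-8239878, minus strand) encodes the PDGF- and VEGF-related receptor, needed for blood cell survival and migration. It had 2 optimal regions and 12 pooled ones, by count the most pooled regions of the 10 genes. Per 10 kb it held 5.74, fewer than the 9.06 of the much shorter PPO3. The stronger optimal one had a signal of 190.1 (rank 2508), with 123.6 in replicate 1 (rank 1893) and 75.7 in replicate 3 (rank 3143). It lay at chr2L:8229700-8229855 in intron 2 of 18 of Pvr-RI, 882 bp downstream of a TSS, and its summit matched to the base in replicate 1. The other, at chr2L:8232343-8232772 in intron 1 of the same transcript, had 131.8 (rank 3976), with 59.0 in replicate 1 and 68.5 in replicate 3. It lay 1881 bp upstream of that TSS and inside the longer transcripts.

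The 10 weaker Pvr regions had pooled signals of 16.3 to 50.3. The strongest of them lay in the 5′ UTR, 246 bp upstream of the nearest Pvr TSS, and was found in both replicates (29.7 and 20.3). Those at 43.3 and 27.1 overlapped the replicate regions of the optimal ones beside them. The one at 43.3 also had a region of its own in replicate 1, with 28.6 (rank 10928) and the same summit. The region at 38.2, 218 bp from a TSS, was found in both replicates (16.3 and 30.2). The 2 past the 3′ end, with 33.9 and 17.0, lay nearer to the TSS of Snx6.

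Among the effector genes, PPO3 (FBgn0261363, chr2R:23064769-23067183, plus strand), a prophenoloxidase gene known from lamellocytes, had 2 optimal and 4 pooled regions. The upstream one had a signal of 166.7 (rank 2961), with 98.2 in replicate 1 and 68.0 in replicate 3. It lay 389 bp upstream of PPO3, and the TSS of CG9890 was nearer at 120 bp. The other had 137.7 (rank 3791), with 59.0 in replicate 1 and 86.2 in replicate 3. It lay in the 3′ UTR, 2339 bp from the PPO3 TSS, and the TSS of l(2)k09913 was nearer at 88 bp. So each optimal region of PPO3 lay at the start of a neighbour. The weaker ones had 57.8 and 23.6. The one with 57.8 lay 174 bp upstream of PPO3, nearer to its TSS than to that of CG9890, and had regions of its own in replicate 1 (29.6, rank 10590) and replicate 3 (20.7, rank 12069). The one with 23.6 was found in replicate 3 alone.

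PPO1 (FBgn0283437, chr2R:17887220-17889973) and PPO2 (FBgn0033367, chr2R:9042261-9044709), the prophenoloxidase genes of crystal cells, both on the minus strand, had no region in the optimal, pooled or replicate lists. The nearest optimal region was 3086 bp from PPO1, inside the gene Elk, and 20086 bp from PPO2. Of genes between 0.5 and 2 times as long, 34.2% for PPO1 and 33.1% for PPO2 had an optimal region.

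Hml (FBgn0029167, chr3L:13846054-13860001, plus strand), which encodes the clotting protein Hemolectin of plasmatocytes, had regions in the list of replicate 3 alone. There were 4, with signals of 12.3, 14.3, 15.9 and 19.8, the strongest at rank 12645. The one with 15.9 lay 617 bp upstream of the TSS and the other 3 lay in coding exons. NimC1 (FBgn0259896, chr2L:13973158-13976769, minus strand), a phagocytosis receptor gene, had 3 pooled regions of 16.2, 17.0 and 18.7, the strongest at rank 25567. The one with 16.2 was found in replicate 3 (12.8), 47 bp past the gene and 164 bp from the TSS of He, and the other 2 in neither replicate. Of these, the one with 17.0 lay 24 bp from the TSS of Cyp28a5.

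Summits in coding exons were listed mostly in replicate 3. Those in the coding sequence of any protein-coding gene made up 7 of the 34 replicate 3 regions at the 10 genes, or 20.6% (95% exact Clopper-Pearson interval 8.70 to 37.9), against 7.25% of that whole list. In the list of replicate 1 it was 2 of 29, against 4.27%, in the pooled list 2 of 33, against 4.30%, and in the optimal list 0 of 6, against 0.556%. The intervals cover counting error over regions alone, and neighbouring regions of 1 gene are not independent. The sets are also unlike, since regions at the 10 genes lie by rule in or near a gene. The whole lists also hold regions far from genes.

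**Figure D3:**
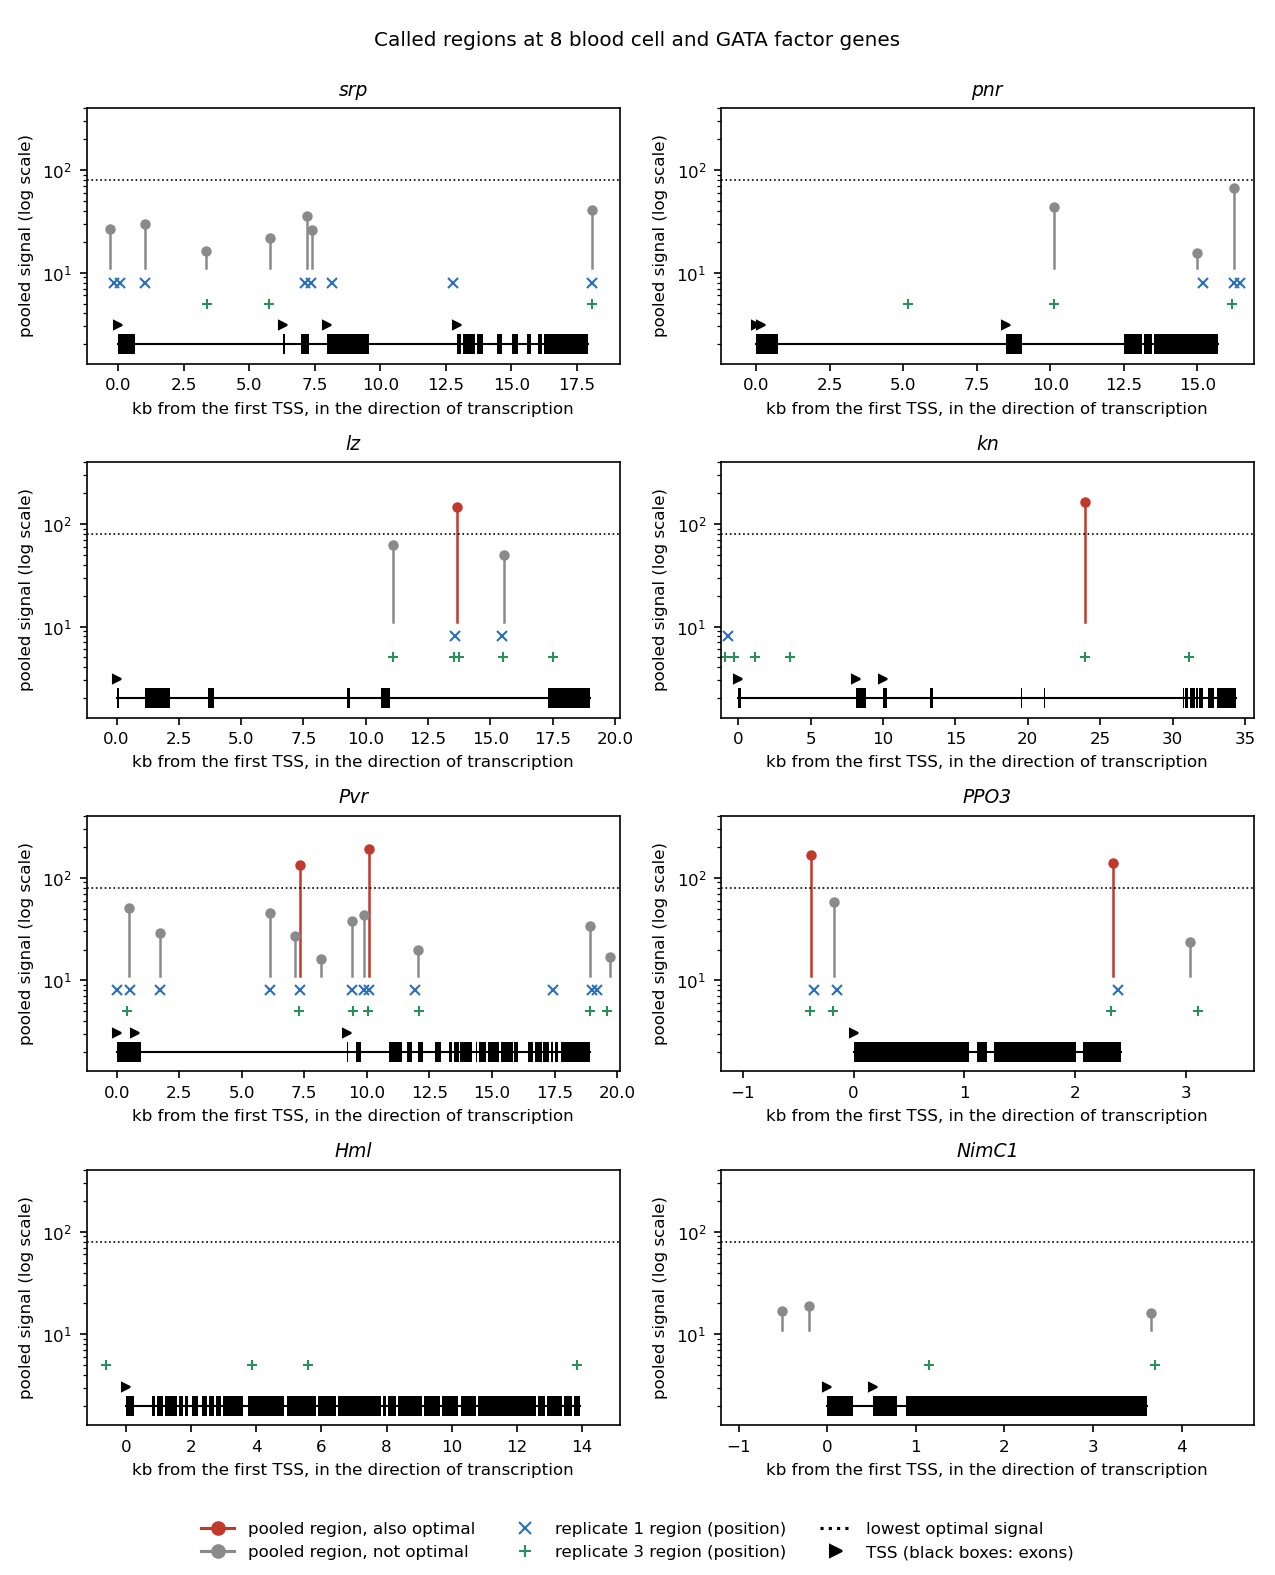
Pooled signal (log axis) of the pooled regions at 8 of the 10 genes, in kb from the first TSS in the direction of transcription, above exons (black boxes) and TSSs (arrowheads), with replicate regions marked by position and a dotted line at the lowest optimal signal, 79.3. Lz, kn, Pvr and PPO3 have red stems above the line, at 131.8 to 190.1, and Hml has replicate 3 marks alone.

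By position, 4 of the 6 optimal regions lay in introns, 1 upstream and 1 in a 3′ UTR. Of the 33 pooled regions, 18 lay in introns, 5 upstream, 6 downstream, 2 in 5′ UTRs and 2 in 3′ UTRs. A neighbouring protein-coding gene had the nearer TSS for 3 of 6 optimal and 11 of 33 pooled regions (33.3%), against 36.0% and 34.7% of all pairs of a region and a gene.

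Overlap between the replicates was read next. The optimal list was chosen by IDR and the pooled list comes from both replicates. Their overlap with the replicate lists is therefore partly built in, above all for optimal regions. Of the 6 optimal regions 5 overlapped a region of each replicate by at least 1 bp (83.3%, 95% exact interval 35.9 to 99.6), against 98.2% of the optimal list. Of the 33 pooled regions 15 did (45.5%, interval 28.1 to 63.6), against 63.3% of the pooled list. Such an overlap can be with the replicate region of a stronger neighbour, as for the Pvr region at 27.1. With summits within 100 bp instead, 12 of the 33 were found in both, and no such share is given for the whole list. By the overlap of 1 bp, replicate 1 alone held 7, replicate 3 alone held 8 and neither held 3. Of the replicate 1 regions at the 10 genes, 58.6% had a replicate 3 counterpart, and of the replicate 3 regions 50%, against 65.1% and 63.5% of the whole lists. In replicate 1 the median signal was 28.6 with a counterpart and 13.8 without, and in replicate 3 it was 20.7 and 14.3. The optimal regions other than that of kn lie in the lower left of the plot of ranks by replicate.

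**Figure D4:**
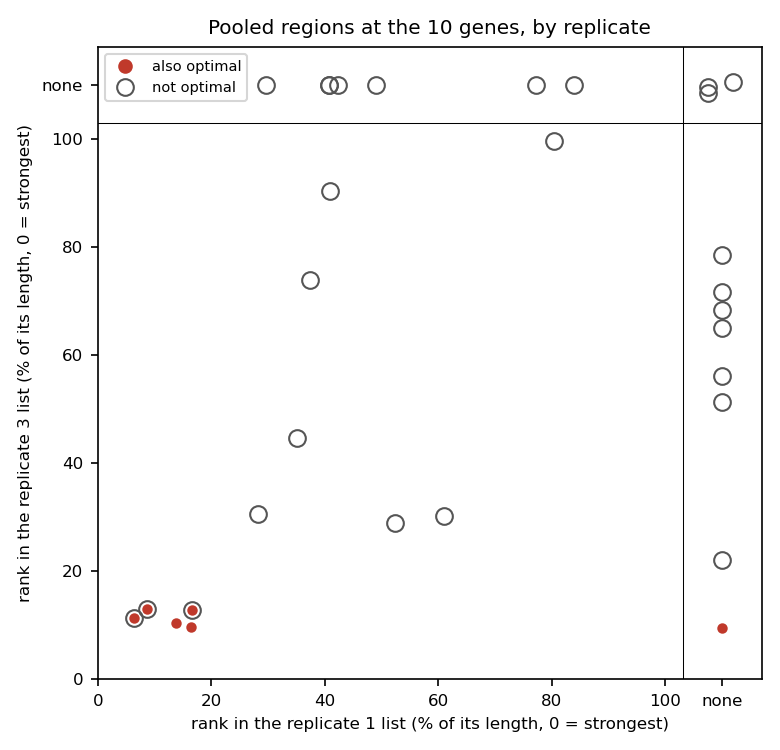
Rank of each pooled region at the 10 genes in the list of replicate 3 (y) against that of replicate 1 (x), as a percentage of list length with 0 the strongest, and separate strips for no counterpart. Filled points are optimal and open rings are not, 5 of the 6 optimal points lie in the lower left, kn lies in the strip without a replicate 1 counterpart, and 3 rings share a position with an optimal point because each region is plotted at the strongest replicate region it overlaps, which for these is that of the optimal neighbour.

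Base composition at the summits was compared with that of windows 300 bp to either side. At the 6 optimal summits the median GC content was 35.1% (16.8% to 40.6%) and in their flanks 44.6%, and it was lower at the summit in 6 of 6. The median difference was −11.4 percentage points, the same to this precision as in the whole optimal list, where 80.2% were lower. At the other 27 pooled summits the median difference was −1.49 points, with 15 of 27 lower (55.6%), against −2.48 points and 56.5% in all pooled regions outside the optimal list. The lowest GC was at the upstream PPO3 summit (16.8%) and the highest was 290 bp upstream of srp (68.3%). 

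**Figure D5:**
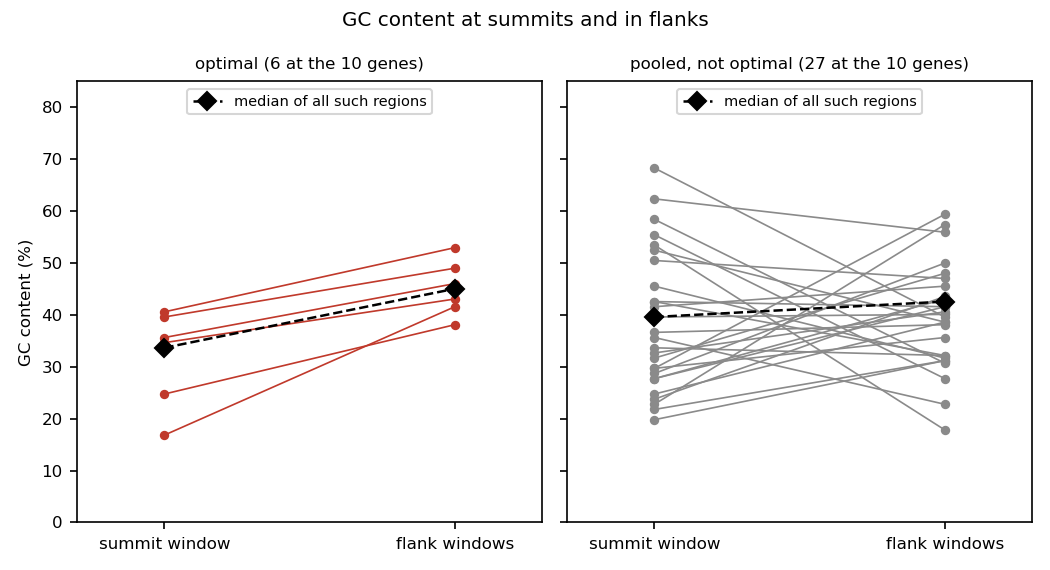
GC content (%) of the 101 bp window at the summit and of the windows 300 bp to either side, 1 line per region at the 10 genes, for the 6 optimal regions (left) and the 27 pooled regions outside the optimal list (right), with black diamonds for the medians of all such regions. All 6 lines on the left rise towards the flank, and on the right 15 of 27 do.

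Sequence words were counted on both strands in the same 101 bp windows. A GATA word was in 1 of 6 optimal summits and 6 of 33 pooled ones (18.2%), against 22.5% of the optimal and 19.3% of the pooled list. The 6 lay at lz, PPO3, srp (290 bp upstream) and Pvr (3), and 2 of the 6 words overlapped a TAAT. The summit counted for PPO3 lay inside l(2)k09913, 184 bp from its TSS and 3042 bp from that of PPO3. Of the 3 counted for Pvr, 1 lay 27 bp past the gene and 212 bp from the TSS of Snx6. The core GATA alone was in 3 of 6 and 19 of 33, against 55.2% and 49.8%. The homeodomain core TAAT was in 5 of 6 and 22 of 33 (66.7%), against 77.1% and 67.0%, and the longer TAATTA in 1 of 6 and 4 of 33, against 8.79% and 7.70%. TAATTA contains TAAT. The E-box CANNTG was in 2 of 6 and 9 of 33 (27.3%), against 35.5% and 38.7%. In the pooled list the shares at the 10 genes were thus close for TAAT and the GATA word. Those for the GATA core and TAATTA were somewhat larger and that for the E-box smaller, each by few regions. In the optimal list the GATA core went the other way, with 50% against 55.2%. None of these differences was tested.

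The remaining words were in at most 4 of the 33 pooled summits. The Runx words TGTGGT and TGCGGT, known as Lozenge-type sites, were in 0 of 6 and 1 of 33, against 5.79% and 6.95%. The EBF word CCCNNGGG was in none, against 0.249% and 0.58%. The DRE core TATCGAT was in none, against 3.47% and 2.64%. GAGAG was in 0 of 6 and 4 of 33, against 9.60% and 12.0%. The AP-1 word TGANTCA was in 0 of 6 and 1 of 33, against 2.69% and 2.44%. The paired-domain consensus with 1 mismatch allowed was in none, against 0.219% and 0.417%. A match describes these letters in this window and says nothing of the factor bound.

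Other genes of the same pathways and cell types were read from lists drawn up by function. No share for genes of like length was computed for these lists, and longer genes hold regions more often. Of their 43 distinct genes, 20 had an optimal and 36 a pooled region within 1 kb, beside 34.1% and 63.4% of all protein-coding genes. For 5 of these 20 (ush, Pvf1, Pvf2, N and hh), a neighbour's TSS was nearer to the strongest region. Ush, the zinc finger cofactor of Pannier and Serpent, had 14 optimal regions, and its strongest, with 4342, was rank 1 of the list. Each of the Pvr ligand genes had an optimal region, with 204.5 at Pvf1, 137 bp from the TSS of htk, 176.1 at Pvf2 and 172.1 at Pvf3. Of the other GATA factor genes, GATAd (169.9) and grn (139.8) had 1 optimal region each and GATAe had none.

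In the list of plasmatocyte effector genes, 0 of 10 had an optimal region, against 34.1% of all genes, and 7 had a pooled one, against 63.4%, the strongest being 76.1 at the scavenger receptor gene crq. In the crystal cell list 3 of 4 had an optimal region, against 34.1% of all genes, with 676.9 at N (the Notch receptor), 203.4 at peb and 83.9 at Su(H), the transcription factor of the Notch pathway. In the lamellocyte list 3 of 6 did, against the same 34.1%, with 588.9 at the kinase gene msn, 198.1 at the filamin gene cher and 118.8 at the talin gene rhea.

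The regulator genes differed among themselves. In the lymph gland list 3 of 7 had an optimal region, against 34.1% of all genes, with 485.9 at the Hox gene Antp, 98.5 at the E-cadherin gene shg and 87.5 at the ligand gene hh, whose neighbour CG31457 had a TSS 72 bp away. Of the 4 blood fate regulators, beside the same share, zfh1 (575.7) and Stat92E (273.3) did and gcm and gcm2 did not. Of the 6 genes that Pannier is known to act on or with, also beside 34.1%, caup (281.6), tup (96.0) and ara (79.9) did, and ac and sc had no pooled region. Many of these genes also act in nervous or imaginal tissue, and the lists do not tell tissues apart.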

How the data were processed

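ChIP-seq of ey-eGFP was read from lists of regions in genome build dm6, deposited by the authors for replicate 1, replicate 3, the pool of both, and an IDR-thresholded optimal set. Per the file headers, the lists derive from alignments and a control alignment. Which aligner, which caller and which threshold were used is not given in the sources used here. The control alignment was not analysed here. The deposited signal is the authors' strength value per region, and the deposited summit offset (another value, counted in bases) placed the summit. The dm3 lists were not used here.

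Computed from these were ranks by signal within a list, summits within 1 kb of a gene (Ensembl release 115, BDGP6.54), distances to TSSs of protein-coding genes, overlaps of at least 1 bp between lists, and GC content and words within 50 bp of summits in RefSeq sequence of Release 6. Python 3.11.15, pandas 2.3.3, numpy 2.4.6, scipy 1.17.1 and matplotlib 3.10.9 were used. The scripts were tested on simulated regions. Both replicates form 1 group, so no test between conditions was possible and no p-value is given. The labels call the replicates biological and give both the same strain. Depth is unknown. Exact Clopper-Pearson intervals (95%) cover counting error over regions alone.

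The 10 genes and the other lists were chosen with earlier results of these data known. Named are all 10 genes, neighbours with a nearer TSS to their optimal regions, and up to 5 genes a list with an optimal region, by signal. Further genes, such as GATAe, crq, gcm and neighbours of weaker regions, were named after their values were seen. Alternatives changed the gene window, the overlap, the summit window, the list and the replicates.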

Additional observations from a re-analysis of the deposited data

How the results depend on the processing

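Of 42 alternative values, 25 stayed close to the reported value, 17 moved and 0 reversed in sign. Only the GC difference could reverse in sign, since all the other values are counts. With a gene window of 5 kb, 7 genes had an optimal region, with 13 optimal and 62 pooled regions, and a neighbour's TSS was nearer for 9. With summits within 1 kb of a TSS these were 2 genes, 2 optimal and 12 pooled regions, and 1 with a nearer neighbour. The 3418 strongest optimal regions left 3 at the genes, and the 15000 strongest pooled ones left 17. Among the highest-ranked regions of each replicate, 8 pooled regions were found in both, against 15. GATA words were in 1 summit within 25 bp, 14 within 100 bp and 19 with the core alone, against 6. The median GC difference of −7.92 over all 33 pooled regions was −11.8 points within 25 bp and −4.48 within 100 bp. The causes were not tested. To leave out 1 replicate, the other replicate's own list was read, since no optimal or pooled list could be remade. Its 6835 strongest regions stood in for the optimal list and its whole list for the pooled one. This gave 3 to 4 genes with 5 to 7 such strongest regions, and 29 to 34 regions in the whole list. GATA summits were 5 to 6, and the GC difference was −7.92 to −3.96 points. The value of −3.96 points came from the list of replicate 3. Depth and the cells of origin are unknown, 2 replicates form 1 group, and distance to a TSS does not identify the gene a region regulates.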

Other observations

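Between 1 and 5 kb from the 10 genes lay 7 further optimal regions, and a neighbour's TSS was nearer for 6 of them, the exception being the region upstream of srp. Past the 3′ end of kn, 2 summits lay 49 and 18 bp from a TSS of BEAF-32, with pooled signals of 190.7 and 149.2, and 1 lay 73 bp from that of Spred, with 82.4. The kn region upstream, with 98.5, lay 2043 bp from hui. The region near Hml lay in CG8745 and had 165.8, with 66.3 in replicate 1 and 93.7 in replicate 3. The region near PPO1 had 82.5 and was found in replicate 3 (39.6) but not in replicate 1.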
